A study of Homo sapiens with 12 samples.

Results

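Expression of 10 genes of DNA damage tolerance was examined in 2 neuroblastoma cell lines treated with THZ531, a compound that binds the transcriptional kinases CDK12 and CDK13 covalently and inhibits them. The genes encode the translesion polymerases and their partners (POLH, POLI, POLK, REV1, REV3L and MAD2L2) and the enzymes that ubiquitinate the sliding clamp PCNA (RAD18, UBE2A, HLTF and SHPRH). They were chosen as a pathway with earlier results of these data known, were found by gene symbol in the platform annotation, and are 10 of the 18244 genes that had a probe set with a single symbol. Together they had 29 of the 49495 rows of the table, between 1 row (MAD2L2) and 5 rows (POLK) per gene. Where a gene had several, the probe set with the highest mean log2 intensity over the 12 arrays stood for it.

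Translesion synthesis lets replication pass a damaged base that the replicative polymerases cannot copy. At a stalled fork, RAD18 and its E2 enzyme UBE2A attach ubiquitin to PCNA, and the modified clamp recruits Y-family polymerases that insert a nucleotide opposite the lesion. Polymerase zeta, built on REV3L and MAD2L2, then extends from the insertion, while HLTF and SHPRH can lengthen the ubiquitin chain on PCNA and so favour an error-free bypass.

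Total RNA of IMR-32 and Kelly cells, human neuroblastoma lines that carry amplified MYCN, was hybridised to 12 GeneChip PrimeView arrays. In each line, cells were kept for 6 h in DMSO, the vehicle, or in 100 or 400 nM THZ531, and each of the 6 groups held 2 arrays that the labels call biological duplicates. Both lines are tumour-derived cultures, and no group held a resistant line or a second inhibitor. The comparison asked how the inhibitor acts on the expression of DNA damage response genes in neuroblastoma cells.

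Intensities are linear values that the authors scaled on ERCC control transcripts added to the RNA, which leaves in them any shift common to most genes. Per the study's methods, cells were counted before lysis and the values take cell numbers into account. The cell counts were not used here, so fewer cells and less RNA per cell are told apart only as far as that scaling does so. Median intensity per array ran from 55.9 to 131.8, and the 100 ERCC rows averaged 6.26 to 6.29 on the log2 scale in each array, which follows from the scaling. All 9 measured markers of adrenergic neuroblastoma, among them PHOX2A, HAND2, DBH and MYCN, lay above the median row, while 0 of 4 epithelial and 2 of 5 blood markers did (CD68 and HBB). Of 8 mesenchymal markers, 4 did (COL1A1, FN1, VIM and TWIST1). Arrays of 1 group were not equally alike, and 3 groups differed within themselves by more than others: over all genes the correlation between replicates was 0.924 in IMR-32 at 100 nM, 0.960 in Kelly at 400 nM and 0.969 in Kelly at 100 nM, against 0.989 to 0.991 in the other 3 groups. Log2 changes below are given with their standard error (SE) from a limma fit to all 12 arrays, and adjusted p is the limma value after Benjamini-Hochberg adjustment over 18244 genes, with a threshold of 0.05. With 2 arrays in each of the groups compared, the smallest two-sided p of an exact permutation test is 0.333. The limma values therefore depend on a spread shared between genes and groups.

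In IMR-32 at 400 nM, 9 of the 10 genes fell against DMSO and none rose. REV3L, the catalytic subunit of polymerase zeta, and RAD18, the PCNA ubiquitin ligase, had the largest falls among the genes past the test: REV3L was 10.0-fold lower and RAD18 7.80-fold lower on the fitted scale. MAD2L2, the small partner of REV3L, had the smallest. Only SHPRH, a PCNA-directed ubiquitin ligase with a large mean change and a wide error, missed the threshold. Over all genes, 39.0% were called lower at the same threshold (7123 of 18244, with 72 higher). The median change was −0.67 on the log2 scale, against −2.15 for the 10 genes. All genes include dim ones, and the gap was narrower among brighter genes. With only the 10486 genes above the median row fitted, 6182 were called lower and the median change was −1.20. The 8 members among them, all but POLI and POLK, were all called lower, with a median of −2.42.

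For every one of the 10 genes, SHPRH included, both 400 nM arrays lay below both DMSO arrays, and so they did for 76.6% of all genes. All 10 also had an unadjusted limma p below 0.05, as did 9150 of the 18244 genes with lower and 104 with higher levels. Some values that describe the arrays moved in the same direction, and others did not. Hybridisation controls enter after labelling and were not used for the scaling. They averaged 10.76 and 10.80 on the log2 scale at 400 nM against 11.07 and 11.50 in DMSO. The summed intensity of the 9 adrenergic markers was 15367 to 18179.8 at 400 nM against 40448 to 48032 in DMSO. The summed intensity of the 8 mesenchymal markers was 4516 to 4689 at 400 nM against 8690 to 10698 in DMSO, and the log2 difference between the 3′ and 5′ probe sets of ACTB, a measure of RNA quality, was 0.372 and 0.306 at 400 nM against 0.462 and 0.587 in DMSO. Poly-A controls averaged 9.65 and 9.85 at 400 nM, much as in DMSO (9.67 and 9.85). The 3′ to 5′ difference of GAPDH was −0.0465 and −0.0192 at 400 nM against −0.0882 and −0.0475 in DMSO, so it moved the other way from that of ACTB. The part of these values in the result was not tested. The count depended on the scaling and on the number of arrays. Centring every array on the median of all rows moved the median gene to 0.37. After it, 3 of the 10 genes stayed past the threshold (REV1, REV3L and RAD18), and quantile normalization also gave 3. Over all genes, centring called 2881 lower and 3415 higher, and quantile normalization 2010 lower and 1353 higher. No gene, among the 10 or among all, passed once any of the 4 IMR-32 arrays that this comparison uses was dropped. The median change of the 10 genes then ran from −2.60 to −1.54. Without 1 Kelly DMSO array (replicate 1 or 2), fewer of the 10 and fewer of all genes passed.

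**Figure D1:**
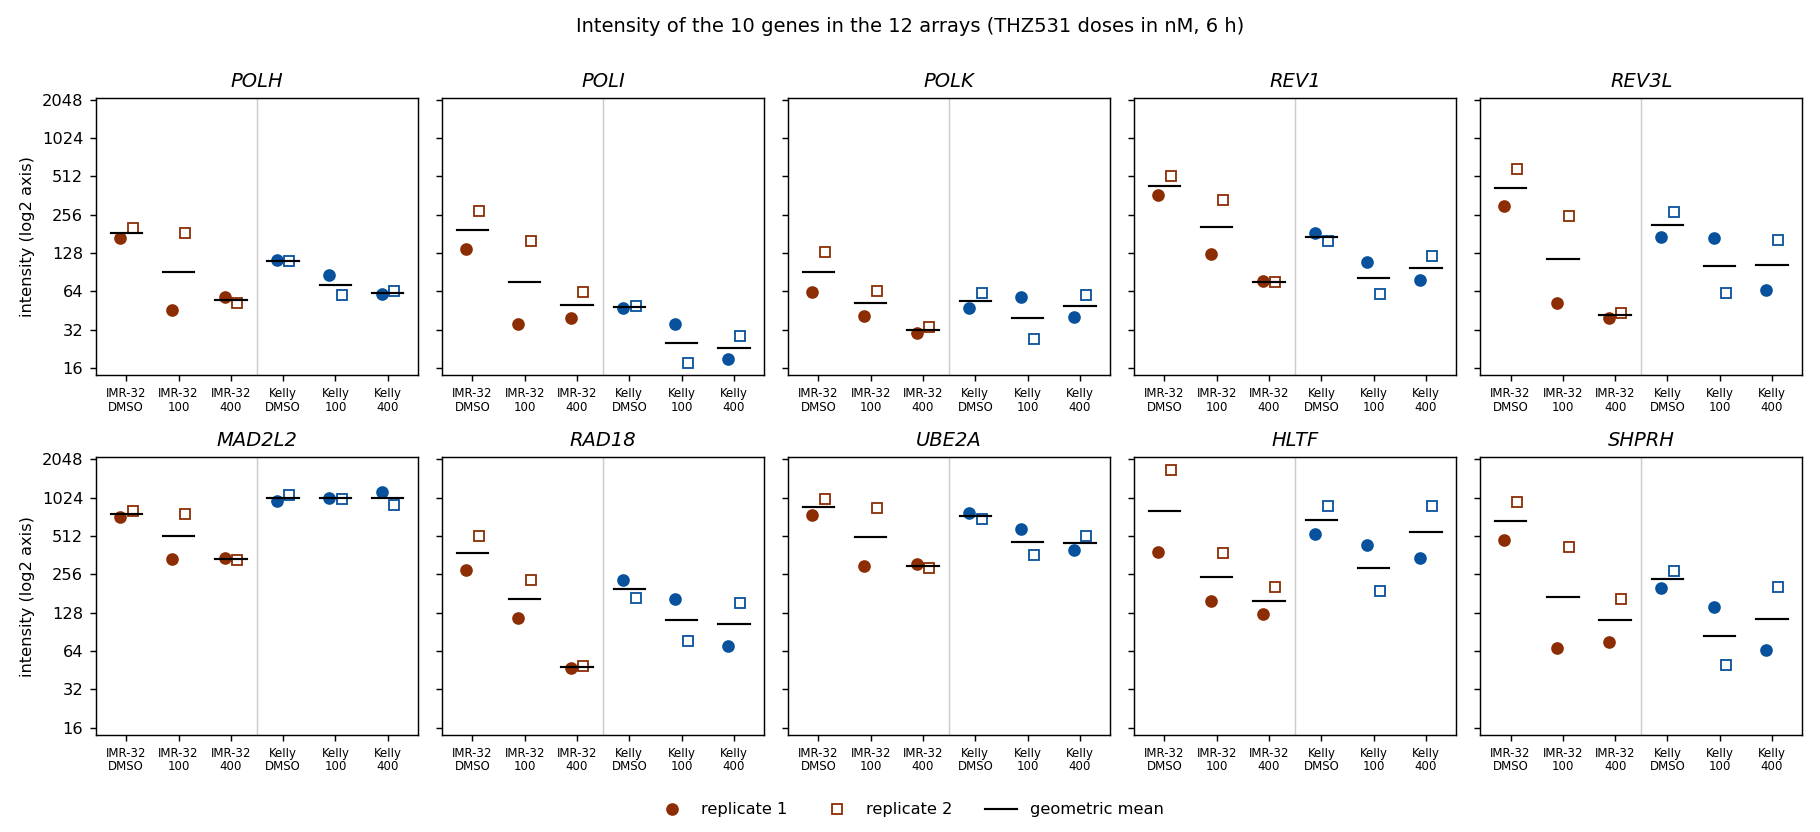
Intensity (vertical axis, log2 scale) of the 10 genes in the 12 arrays, with DMSO, 100 nM and 400 nM of each line from left to right; filled circles are replicate 1, open squares replicate 2, and bars the geometric mean of the group. The 2 IMR-32 arrays at 400 nM lie below the 2 DMSO arrays in all 10 panels, while MAD2L2 in Kelly stays between 898 and 1135.

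Among the Y-family polymerases that insert a nucleotide opposite a lesion, POLH encodes polymerase eta, which copies ultraviolet-induced thymine dimers accurately and is lost in the variant form of xeroderma pigmentosum. Its intensity in IMR-32 was 169 and 201 with DMSO alone, 45.4 and 185 with 100 nM and 58.4 and 52.3 with 400 nM. The 400 nM arrays were close to each other and well under DMSO, whereas the 100 nM arrays parted, replicate 1 with the 400 nM arrays and replicate 2 with DMSO. At 400 nM the fitted change was −1.74 ± 0.53 (3.34-fold lower, limma adjusted p = 0.0324). In Kelly the gene had 113 and 110 with DMSO alone, 86.0 and 60.1 with 100 nM and 60.6 and 65.0 with 400 nM. Every treated Kelly array was below both DMSO arrays, but neither change, −0.64 ± 0.53 at 100 nM or −0.83 ± 0.53 at 400 nM, passed the limma test (adjusted p = 0.534 and 0.511).

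POLI encodes polymerase iota, an insertion polymerase of low fidelity. IMR-32 cells had intensities of 138 and 274 with DMSO alone, 35.7 and 159.9 with 100 nM and 39.7 and 63.0 with 400 nM. Both 400 nM arrays were under both DMSO arrays, and the lowest array of the line was replicate 1 at 100 nM. The change at 400 nM was −1.96 ± 0.67 (limma adjusted p = 0.0463), the closest to the threshold of the 9 called genes. In Kelly cells the intensities were 47.6 and 49.5 with DMSO alone, 35.8 and 17.6 with 100 nM and 18.9 and 28.5 with 400 nM. In Kelly the treated arrays again lay below the DMSO arrays without overlap, with a change of −1.06 ± 0.67 at 400 nM (limma adjusted p = 0.510).

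POLK encodes polymerase kappa, which passes bulky adducts on guanine. Its probe sets were dim, and the leading one had 63.0 and 131 in IMR-32 cells with DMSO alone, 41.3 and 64.4 with 100 nM and 30.3 and 33.8 with 400 nM. The 400 nM arrays lay below DMSO and the 100 nM arrays overlapped it. The change at 400 nM was −1.51 ± 0.46 (2.84-fold lower, limma adjusted p = 0.0319). In Kelly, the arrays overlapped at every dose, with 47.5 and 61.9 with DMSO alone, 57.9 and 27.3 with 100 nM and 40.6 and 60.2 with 400 nM. The Kelly change at 400 nM was −0.13 ± 0.46 with a 95% interval of −1.17 to 0.90, and it turned to 0.30 with median centring and 0.12 with quantile normalization.

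REV1 encodes a deoxycytidyl transferase that also serves as the scaffold on which insertion polymerases and polymerase zeta meet. In IMR-32 it had 363 and 514 with DMSO alone, 127 and 332 with 100 nM and 77.2 and 75.6 with 400 nM. No dose overlapped another in this line: both 100 nM arrays were below both DMSO arrays and above both 400 nM arrays. REV1 fell by 2.50 ± 0.47 at 400 nM (5.65-fold lower, limma adjusted p = 0.0174), which shares the smallest adjusted p of any gene in that comparison, and stayed past the threshold after median centring (−1.46) and quantile normalization (−1.12). In Kelly it had 186 and 159 with DMSO alone, 108 and 61.1 with 100 nM and 78.1 and 121 with 400 nM. All 4 treated Kelly arrays were below the DMSO arrays, the 2 doses overlapped, and the change was −1.08 ± 0.47 at 100 nM and −0.82 ± 0.47 at 400 nM (limma adjusted p = 0.426 and 0.503).

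REV3L, a large gene whose product extends from nucleotides inserted opposite lesions and without which mouse embryos die, had 298 and 582 in IMR-32 cells with DMSO alone, 52.0 and 252 with 100 nM and 39.8 and 43.3 with 400 nM. Both 400 nM arrays were the lowest of the line, and the 100 nM arrays differed widely from each other while still lying below DMSO. The change at 400 nM was −3.33 ± 0.78 (limma adjusted p = 0.0182), lower than all but 2.26% of the 18244 genes. In Kelly the intensities were 171 and 267 with DMSO alone, 168 and 62.1 with 100 nM and 66.1 and 163 with 400 nM. Here 1 array of each dose was near DMSO (replicate 1 at 100 nM, replicate 2 at 400 nM) and the other was clearly under it. The Kelly change at 400 nM was −1.04 ± 0.78 (limma adjusted p = 0.552).

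MAD2L2, also called REV7, encodes a HORMA domain protein that joins REV3L to REV1 and also belongs to the shieldin complex of double-strand break repair. Its intensity was 723 and 799 in IMR-32 cells with DMSO alone, 339 and 766 with 100 nM and 344 and 331 with 400 nM. The 400 nM arrays were nearly equal to replicate 1 at 100 nM, and replicate 2 at 100 nM lay between the DMSO arrays. At 400 nM the change was −1.17 ± 0.34 (2.25-fold lower, limma adjusted p = 0.0280), but it was −0.13 after median centring and 0.28 after quantile normalization, so its direction relative to other genes is not settled. In Kelly, MAD2L2 had 964 and 1065 with DMSO alone, 1026 and 998 with 100 nM and 1135 and 898 with 400 nM. No Kelly group stood apart from another: the changes were 0.00 ± 0.34 at 100 nM and −0.01 ± 0.34 at 400 nM, with a 95% interval of −0.78 to 0.77 at 400 nM.

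Among the genes of PCNA ubiquitination, RAD18 encodes the E3 ligase that binds single-stranded DNA at stalled forks and attaches the first ubiquitin. In IMR-32 it had 277 and 508 with DMSO alone, 116 and 233 with 100 nM and 47.0 and 49.1 with 400 nM. As with REV1, the 3 doses did not overlap, and the 400 nM arrays were nearly equal. RAD18 fell by 2.96 ± 0.53 at 400 nM (limma adjusted p = 0.0174) and also stayed past the threshold after median centring (−1.92) and quantile normalization (−1.79). In Kelly it had 231 and 167 with DMSO alone, 163 and 76.8 with 100 nM and 70.2 and 153 with 400 nM. All treated Kelly arrays were below DMSO, by −0.81 ± 0.53 at 100 nM and −0.92 ± 0.53 at 400 nM, without passing the limma test (adjusted p = 0.457 and 0.503).

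UBE2A, also called RAD6A, encodes the E2 enzyme that works with RAD18. Its intensities in IMR-32 were 752 and 993 with DMSO alone, 298 and 849 with 100 nM and 308 and 285 with 400 nM. The 100 nM arrays parted as for MAD2L2, with replicate 1 beside the 400 nM arrays and replicate 2 between the DMSO arrays. The change at 400 nM was −1.54 ± 0.45 (limma adjusted p = 0.0283), against −0.50 once arrays were centred on the median and −0.11 once they were quantile normalized. In Kelly it had 772 and 695 with DMSO alone, 585 and 364 with 100 nM and 395 and 511 with 400 nM. Both treated groups lay below DMSO without overlap, and the change at 400 nM was −0.71 ± 0.45 (limma adjusted p = 0.510). UBE2B encodes a nearly identical enzyme, and whether the UBE2A probes also detect it was not tested; UBE2B, named here for that reason and outside the rule for other genes, changed by −1.92 ± 0.51 in IMR-32 at 400 nM (limma adjusted p = 0.0220).

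HLTF encodes a DNA translocase and ubiquitin ligase that extends the chain on PCNA and remodels forks. It was the gene with the widest spread between untreated IMR-32 arrays, with 386 and 1693 with DMSO alone, 158 and 374 with 100 nM and 124 and 204 with 400 nM. All treated arrays were below the lower DMSO array, for replicate 2 at 100 nM by a small margin. The change at 400 nM was −2.34 ± 0.79 (limma adjusted p = 0.0432), and it was −1.28 with the higher DMSO array (replicate 2) left out and −3.41 with the lower (replicate 1) left out. In Kelly, HLTF had 532 and 889 with DMSO alone, 438 and 189 with 100 nM and 345 and 882 with 400 nM. The 400 nM arrays overlapped DMSO (−0.32 ± 0.79) and turned to 0.11 after median centring and 0.32 after quantile normalization, while the 100 nM arrays lay below it (−1.26 ± 0.79, limma adjusted p = 0.448).

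SHPRH encodes the other mammalian ligase that resembles yeast Rad5. It had 477 and 939 in IMR-32 cells with DMSO alone, 68.2 and 422 with 100 nM and 75.6 and 165 with 400 nM. The 2 treated groups were both under DMSO and overlapped each other, and replicate 1 at 100 nM was the lowest array. The change of −2.58 ± 0.92 at 400 nM was the third largest of the 10 genes but had the largest error, and its limma adjusted p was 0.0513. In Kelly it had 200.04 and 274 with DMSO alone, 143 and 49.6 with 100 nM and 64.7 and 202 with 400 nM. Replicate 2 at 400 nM reached the lower DMSO array, the 100 nM arrays did not, and the changes were −1.48 ± 0.92 at 100 nM and −1.03 ± 0.92 at 400 nM (limma adjusted p = 0.447 and 0.611).

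**Figure D2:**
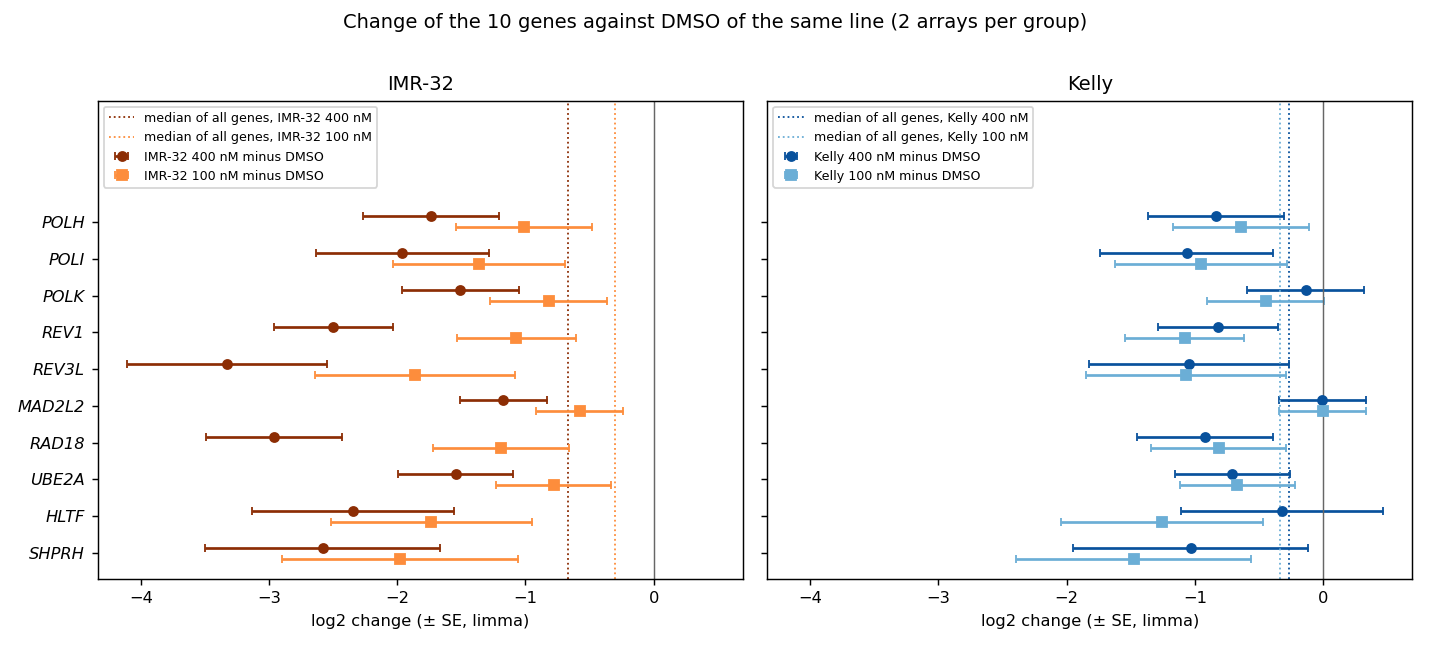
Log2 change against DMSO of the same line (horizontal axis, points, with SE from limma as bars) for the 10 genes in IMR-32 (left) and Kelly (right); dark circles are 400 nM, light squares 100 nM, and dotted lines the median of all 18244 genes. In IMR-32 at 400 nM the points run from −3.33 (REV3L) to −1.17 (MAD2L2), and in Kelly at 400 nM from −1.06 (POLI) to −0.01 (MAD2L2).

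The comparison of 100 nM with DMSO in IMR-32 asked whether a lower dose already acted on these genes. All 10 fitted changes were negative, from −1.98 ± 0.92 for SHPRH and −1.86 ± 0.78 for REV3L to −0.58 ± 0.34 for MAD2L2, with a median of −1.13 against −0.30 over all genes. None passed the limma test (adjusted p = 0.465 for all 10), and neither did any other gene (0%), although 2 of the 10, REV1 and REV3L, had an unadjusted p below 0.05, as did 723 genes with lower and 83 with higher levels. Both 100 nM arrays lay below both DMSO arrays for 5 of the 10 (REV1, REV3L, RAD18, HLTF and SHPRH) and for 27.0% of all genes. The 2 arrays behaved differently: set against the DMSO mean, the median of the 10 genes was −1.90 in replicate 1 and −0.44 in replicate 2, while the median of all genes was −0.50 and −0.06. With replicate 2 left out, the fitted median change was −1.90 for the 10 genes and −0.50 for all genes.

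From 100 to 400 nM in IMR-32, all 10 genes had lower means at the higher dose. RAD18 changed most, by −1.77 ± 0.53 (unadjusted p = 0.00873, limma adjusted p = 0.2004), followed by REV3L (−1.46 ± 0.78) and REV1 (−1.43 ± 0.47). None of the 10 passed, where 1 gene in all did (0.00548%), and 3563 genes had a lower level at an unadjusted p below 0.05. For POLK, REV1, REV3L and RAD18, both 400 nM arrays were below both 100 nM arrays, and this held for 53.7% of all genes. In the other 6 genes, replicate 1 at 100 nM lay within or below the range of the 400 nM arrays. With that array left out, the median change was −1.71 for the 10 genes and −0.64 for all genes.

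**Figure D3:**
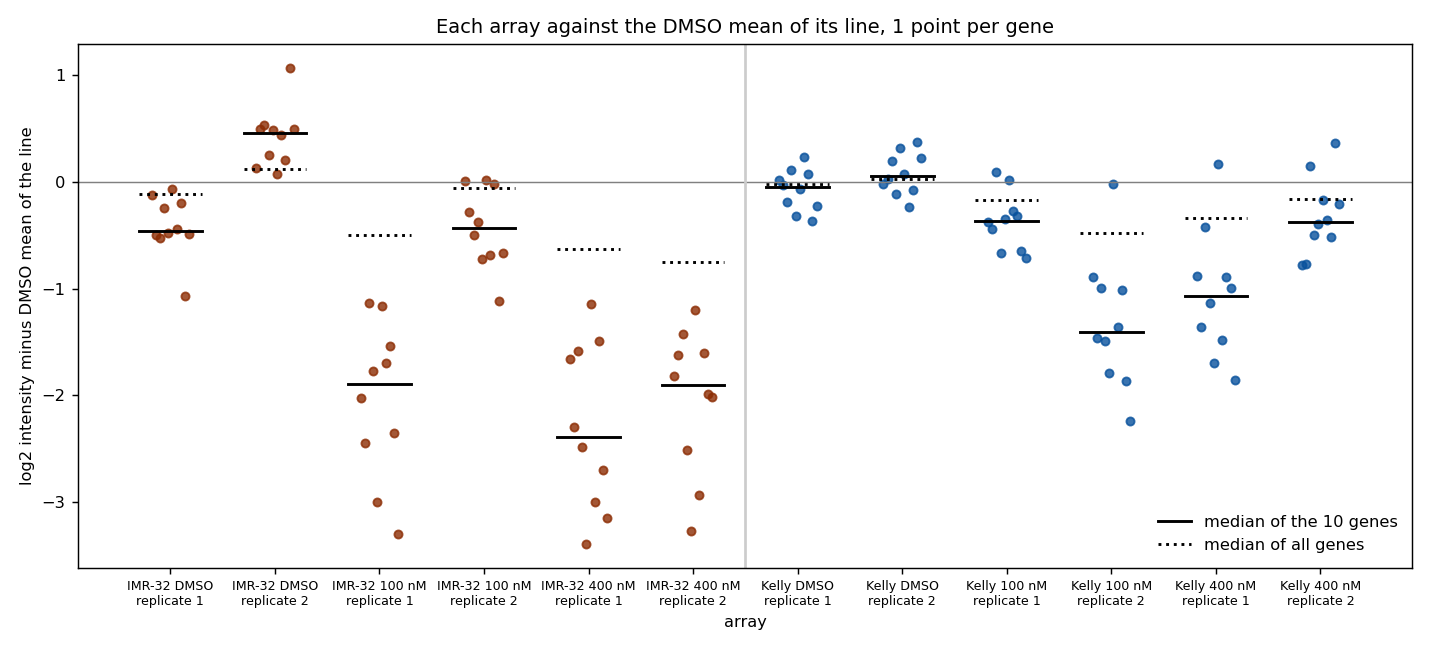
Log2 intensity of each of the 10 genes in each array minus the DMSO mean of its line (vertical axis), 1 point per gene and 1 column per array, IMR-32 on the left and Kelly on the right; solid bars are the median of the 10 genes and dotted bars that of all 18244 genes. Replicate 1 of IMR-32 at 100 nM (median −1.90) lies with the 400 nM arrays (−2.39 and −1.90), and replicate 2 (−0.44) lies near DMSO.

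In Kelly, 0 of the 10 genes passed the limma test at either dose, as was so for every other gene (0% at each dose). At 400 nM the changes ran from −1.06 to −0.01 with a median of −0.82 (−0.26 over all genes), and at 100 nM from −1.48 to 0.00 with a median of −0.88 (−0.33 over all genes). An unadjusted p below 0.05 was reached by 0 of the 10 at 400 nM and by 1, REV1, at 100 nM (1176 and 1813 genes with lower levels). Both 400 nM arrays lay below both DMSO arrays for 6 of the 10 (48.8% of all genes), and both 100 nM arrays did for 8 of the 10 (53.6%), all but POLK and MAD2L2. The response was uneven in each dose: the median of the 10 genes against the DMSO mean was −0.36 in replicate 1 and −1.41 in replicate 2 at 100 nM, and −1.07 in replicate 1 and −0.38 in replicate 2 at 400 nM. Between the doses, 5 of the 10 genes were lower at 400 nM, the median difference was 0.01, and none of the 10 genes or of all genes passed (0%, with 165 genes lower and 385 higher at an unadjusted p below 0.05 and 0 of the 10).

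Whether the 2 lines differed in their response was tested directly, as the change at 400 nM in IMR-32 minus that in Kelly. The difference was negative for all 10 genes, a larger fall in IMR-32, and ran from −2.28 ± 1.10 for REV3L, −2.04 ± 0.75 for RAD18 and −2.03 ± 1.11 for HLTF to −0.84 ± 0.64 for UBE2A. Its median was −1.46, against −0.49 over all genes. None of the 10 genes passed the limma test (adjusted p from 0.449 to 0.631), nor did any gene (0%); RAD18, REV1 and MAD2L2 had an unadjusted p below 0.05, as did 1871 genes in the same direction. With only the 8 arrays of this comparison in the fit, 2 of the 10 passed as lower, as did 2072 genes, so the count depends on whether the 100 nM arrays enter the estimate of the spread.

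In DMSO, 9 of the 10 genes had higher means in IMR-32 than in Kelly and 1, MAD2L2, a lower one. POLI differed most, with 138 and 274 in IMR-32 against 47.6 and 49.5 in Kelly (2.003 ± 0.67, limma adjusted p = 0.164), followed by SHPRH (1.52 ± 0.92) and REV1 (1.33 ± 0.47, adjusted p = 0.183). None passed the test, where 913 genes did (5.00%). The arrays of the lines overlapped for HLTF and UBE2A and not for the other genes. The share of all genes without overlap was not counted for this comparison, so no weight is put on it. With median centring POLI (1.78) and REV1 (1.11) passed, and with quantile normalization REV1 did. Over all genes, centring called 866 higher and 818 lower in IMR-32, and quantile normalization 882 higher and 854 lower.

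Probe sets other than the leading ones gave a second reading of the same arrays for 9 genes. In IMR-32 at 400 nM all 29 probe sets had negative changes, from −3.41 for the second RAD18 probe set to −0.75 for the dimmest of POLK. Fitted separately, 23 of the 29 were called lower, against 36.6% of 45278 probe sets with a single symbol, and 14 of the 19 that were not leading. The changes were −1.98 to −3.13 over the 4 probe sets of REV1 and −1.74 to −2.46 over the 4 of POLH, and all 8 were called. The 2 REV3L probe sets gave −3.33 and −2.13, and the 3 of SHPRH gave −2.58, −1.38 and −2.22, of which the last 2 were called and the leading one, with a limma adjusted p of 0.0503, was not. POLK was the least even, with 2 of its 5 probe sets called. A non-leading probe set of HLTF (−1.91, limma adjusted p = 0.0610) and one of UBE2A (−1.52, limma adjusted p = 0.0528) were not called. In Kelly at 400 nM all 29 were also negative, from −1.43 to −0.01, and 0 were called. There the choice of probe set mattered for the unadjusted limma p, which no leading probe set had below 0.05. The non-leading probe sets of UBE2A (−1.42 and −1.27), a non-leading one of POLH (−1.33) and a non-leading one of POLI (−1.16) did.

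**Figure D4:**
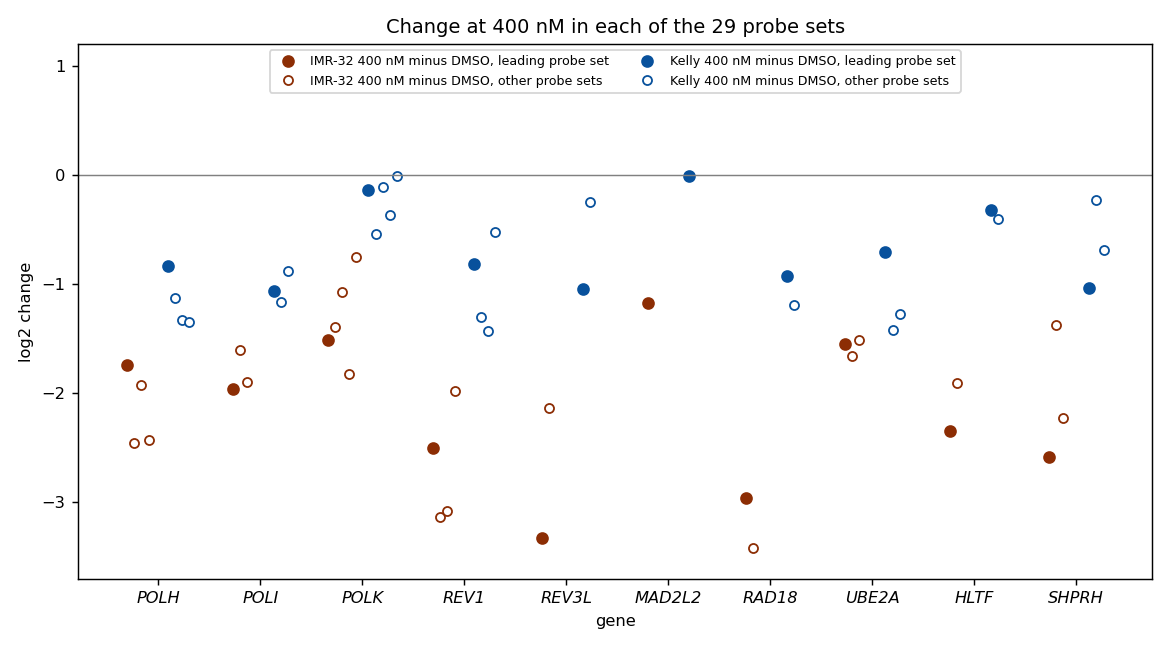
Log2 change at 400 nM against DMSO (vertical axis) in each of the 29 probe sets of the 10 genes, IMR-32 to the left of Kelly for each gene; filled points are the leading probe sets and open points the others. All points are below 0 in both lines, and in IMR-32 they run from −3.41 to −0.75.

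The genes differ in size, and CDK12 is known for its role in the transcription of long genes. In the RefSeq annotation of GRCh38.p14 their spans ran from 9.86 kb (UBE2A) and 17.4 kb (MAD2L2) to 107 kb (SHPRH) and 185 kb (REV3L), and 5 of the 10 fell in the longest quartile of the 18201 genes with a span (67.4 kb and over). Across the 10 genes, the change in IMR-32 at 400 nM and the span had a Spearman correlation of −0.67 and, on the log10 of the span, a Pearson r of −0.75, against a Spearman correlation of −0.28 over all 18201 genes. The points share the same 4 arrays, so these are descriptions and carry no p. REV3L, the longest, had the largest fall and the 2 shortest, UBE2A and MAD2L2, were among the 3 smallest, but POLK, with 99.2 kb, changed by only −1.51. Over all genes the median change at 400 nM in IMR-32 was −0.37, −0.63, −0.96 and −0.999 from the shortest to the longest quartile, and each of the 10 genes was below the median of its own quartile. These medians include dim genes. Quartiles of only the genes above the median row, whose median change was −1.20, were not compared. In Kelly at 400 nM the Spearman correlation over the 10 genes was −0.38 and over all genes −0.25.

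**Figure D5:**
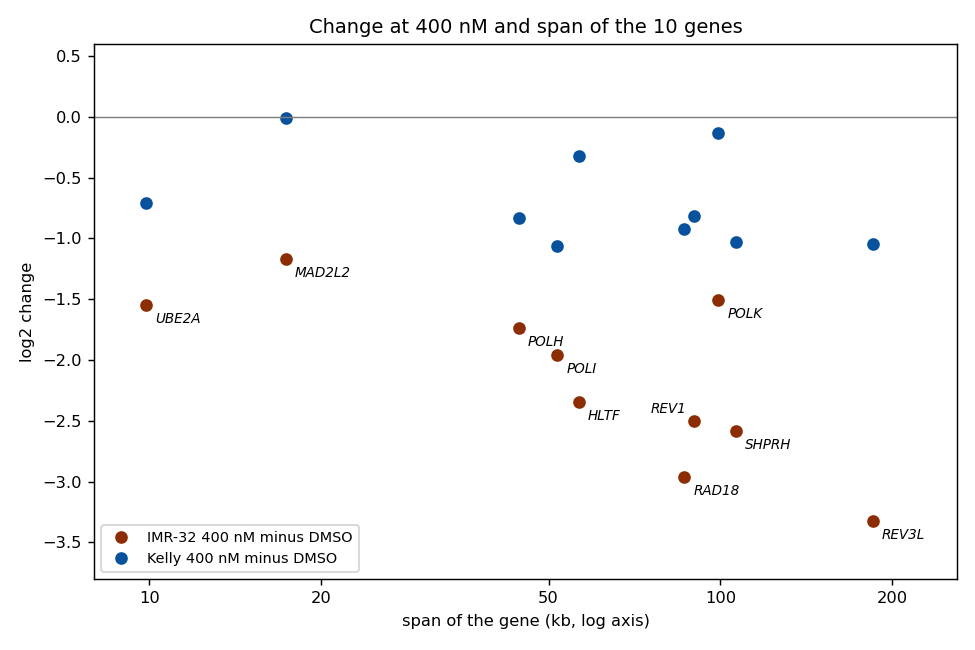
Log2 change at 400 nM against DMSO (vertical axis) and span of the gene in kb (horizontal log axis) for the 10 genes, with IMR-32 in brown and labelled by gene and Kelly in blue. REV3L, at 185 kb, is lowest in IMR-32 (−3.33), and POLK, at 99.2 kb, lies above genes of similar span (−1.51).

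The 10 genes followed each other over the arrays. After subtraction of the DMSO mean of each line, Pearson r between members over the 12 arrays ran from 0.714 (MAD2L2 and HLTF) to 0.983 (POLH and UBE2A), with a shared dependence on the strength of the response in each array. The genes most like REV3L among 10486 genes above the median row were QSER1 and SLF1 (r of 0.994 for both) and BAZ1A (0.993), and those most like RAD18 were FASTKD2 (0.996), MTF2 (0.995) and INTS13 (0.993). Such high values were common, since 4286 genes had an r above 0.9 with REV3L and 3277 with RAD18.

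Genes that work beside these 10 were read from 5 lists, 35 genes in all, of which 31 had a probe set with a single symbol. In IMR-32 at 400 nM, 20 of the 31 were called lower and 0 higher, with a median change of −1.77, where 39.0% of all genes were called lower with a median of −0.67. After median centring the median of the 31 was −0.73, and after quantile normalization −0.76, where that of all genes became 0.37 and 0.18. For PCNA and the factors that modify it, the medians after these scalings were −0.88 and −0.82. Of PCNA and the factors that modify it, 6 of 9 fell (median −1.92): RFWD3, a ubiquitin ligase of stalled forks, changed by −2.27 ± 0.54 and USP1, which removes ubiquitin from PCNA, by −2.20 ± 0.53 (limma adjusted p = 0.0184 and 0.0187), and the E2 gene UBE2N by −0.68 ± 0.54 (adjusted p = 0.334; 0.36 with median centring, 0.0970 with quantile normalization). Of the subunits of polymerase delta, 1 of 4 fell (median −0.46, which turned to 0.58 with median centring and 0.53 with quantile normalization). That one was POLD3, which is also a subunit of polymerase zeta, with 33.2 and 33.8 at 400 nM against 516 and 620 in DMSO and a change of −4.08 ± 0.85 (limma adjusted p = 0.0174). POLD1, the catalytic subunit, had −0.51 ± 0.26 (limma adjusted p = 0.147), and the small subunit POLD4 had −0.21 ± 0.27 (adjusted p = 0.538).

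Of RPA, which coats single-stranded DNA, and RFC, which loads PCNA, 5 of 8 fell (median −1.50). RPA3 and RFC4 had the smallest adjusted p, with −1.51 ± 0.29 and −3.48 ± 0.73 (limma adjusted p = 0.0174 for both), and RPA1 the largest, with −0.51 ± 0.55 (adjusted p = 0.465). Of other polymerases and fork remodelers of damage tolerance, 6 of 7 fell (median −2.20). The fork ubiquitin ligase TRAIP changed by −2.57 ± 0.55, the fork remodeler ZRANB3 by −1.82 ± 0.41 (limma adjusted p = 0.0175 and 0.0176), and the polymerase gene POLN by −0.29 ± 0.26 (adjusted p = 0.386). Of 3 measured partners of MAD2L2 outside polymerase zeta, 2 fell (median −1.05, −0.00975 with median centring and 0.12 with quantile normalization). CHAMP1, a MAD2L2-binding protein of chromosome alignment, changed by −3.38 ± 0.55 and the shieldin gene SHLD1 by −1.05 ± 0.27 (limma adjusted p = 0.0174 and 0.0205). TRIP13, the ATPase that remodels MAD2L2, had −0.94 ± 0.50 (limma adjusted p = 0.161). In each of the other 3 comparisons with DMSO, 0 of the 31 were called, with medians of −0.73 in IMR-32 at 100 nM, −0.75 in Kelly at 400 nM and −0.79 in Kelly at 100 nM.

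As a description, the sequence around the start sites of the 10 genes was read from RefSeq for GRCh38.p14, 250 bases before to 50 bases after each start. All 10 genes matched, with 12 windows, since REV3L and MAD2L2 had 2 starts each. The windows that follow are those of REV3L and RAD18, with the largest falls past the test in IMR-32, of MAD2L2, with the smallest fall, and of POLI, the only one of the 10 without a GGGCGG. They lie at chr6:111483662-111483961 (minus strand, REV3L), chr3:8963423-8963722 (minus strand, RAD18), chr1:11691510-11691809 (minus strand, MAD2L2) and chr18:54269324-54269623 (plus strand, POLI). For REV3L and MAD2L2 the outer of the 2 starts with a window is given. The annotated MAD2L2 gene reaches 11691830, beyond the window shown. Sequences run 5′ to 3′ along the gene, and capitals mark every match on either strand to the 7 motifs named after them.
REV3L: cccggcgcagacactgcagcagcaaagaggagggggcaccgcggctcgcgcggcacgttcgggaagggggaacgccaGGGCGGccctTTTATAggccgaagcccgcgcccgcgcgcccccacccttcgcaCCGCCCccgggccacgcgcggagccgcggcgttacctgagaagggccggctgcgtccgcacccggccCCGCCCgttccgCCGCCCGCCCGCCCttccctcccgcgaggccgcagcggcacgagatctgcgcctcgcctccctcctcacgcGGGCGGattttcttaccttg
RAD18: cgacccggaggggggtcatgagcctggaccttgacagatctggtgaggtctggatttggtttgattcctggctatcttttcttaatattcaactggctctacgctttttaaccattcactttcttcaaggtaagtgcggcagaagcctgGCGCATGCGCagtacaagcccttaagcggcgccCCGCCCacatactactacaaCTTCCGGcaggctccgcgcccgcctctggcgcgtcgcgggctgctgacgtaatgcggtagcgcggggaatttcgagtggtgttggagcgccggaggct
MAD2L2: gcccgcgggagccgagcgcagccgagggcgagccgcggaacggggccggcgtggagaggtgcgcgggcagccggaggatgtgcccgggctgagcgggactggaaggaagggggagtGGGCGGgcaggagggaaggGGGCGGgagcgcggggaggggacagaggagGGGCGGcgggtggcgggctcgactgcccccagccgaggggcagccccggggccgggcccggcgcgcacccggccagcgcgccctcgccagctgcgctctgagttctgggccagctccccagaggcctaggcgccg
POLI: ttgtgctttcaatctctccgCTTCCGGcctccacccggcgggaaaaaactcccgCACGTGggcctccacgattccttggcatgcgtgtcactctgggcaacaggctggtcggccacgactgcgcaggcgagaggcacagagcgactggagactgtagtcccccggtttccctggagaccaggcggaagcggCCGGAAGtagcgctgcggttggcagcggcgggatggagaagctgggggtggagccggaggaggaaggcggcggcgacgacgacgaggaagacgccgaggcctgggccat

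The GC box GGGCGG, bound by SP1-type factors, matched in 9 of the 10 genes and 11 of the 12 windows, compared with 45% of all 35116 windows and 57.2% of the 20496 windows of the genes tested here. REV3L had 7 such matches in the window shown, of which 3 close to the start overlap or adjoin, and a TATAAA, which 11.5% of all windows hold. RAD18 had a GGGCGG on the opposite strand, an NRF1 motif (5.78% of all windows) and the ETS motif CCGGAAG (10.3%). POLI had CCGGAAG at 2 places and the E-box CACGTG (7.26%). CCAAT matched in HLTF and in the MAD2L2 window not shown (34.6% of all windows), CACGTG also in REV1, the NRF1 motif also in POLH and REV1, and the cyclic AMP response element TGACGTCA in none of the 10 (1.85%). The windows of the 10 genes held 57.7% to 80.7% G and C, against a median of 58.7% over all windows. MAD2L2, which changed least, and REV1, among the largest falls, both had GGGCGG matches at 3 places or more. Whether any motif bears on the response was not tested.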

How the data were processed

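RNA was measured on 12 PrimeView arrays, and groups and replicate numbers came from the labels. The deposited value of each probe set and array is a linear intensity. Per the submitters' processing notes the authors summarised the arrays with affy and MAS5 (R 3.1.3), and per the study's methods they renormalized the values by a loess fit to ERCC spike-in probe sets after taking numbers of cells into account. The number of arrays limits the precision. Intensities ran from 0.893 to 33557 in 49495 rows, of which 45284 had 1 gene symbol in the platform annotation, 1333 several and 2878 none. Values were log2 transformed with no pseudocount and no filter, and 11825 genes with several probe sets were represented by the brightest. Group means of all 12 arrays were fitted in limma 3.58.1 (R 4.3.3) by lmFit and eBayes (6 residual and 2.85 prior degrees of freedom), with 8 two-sided contrasts and Benjamini-Hochberg adjustment over 18244 genes. The fit was tested on simulated data with known changes. Python 3.11.15 with pandas 2.3.3 and matplotlib 3.10.9 made the figures, and jsonlite 2.0.0 read the labels.

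The 10 genes and the lists of other genes, 35 in 5 lists, were chosen with earlier results of these data known. USP10, POLDIP2, SHLD2 and SHLD3 had no probe set with a single symbol. From each list the 2 genes with the smallest adjusted p and the 1 with the largest in IMR-32 at 400 nM were named. Median centring subtracted each array's median log2 value over all rows. Other alternatives were quantile normalization, equal ERCC means, a pseudocount of 16, only genes above the median row, the mean of all probe sets, each probe set separately, eBayes run robustly with a trend, a block for the replicate number, only the arrays of the comparison, and leaving out arrays. Promoter windows came from RefSeq, and motifs were searched on both strands. Spans are those of the whole gene in GRCh38.p14.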

Additional observations from a re-analysis of the deposited data

How the results depend on the processing

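Counts of the 10 genes past the limma test changed most with the scaling and with which arrays entered. In IMR-32 at 400 nM against DMSO, 9 became 3 with median centring and 3 with quantile normalization, and 8 to 10 with every other alternative that kept all arrays or left out 3 treated arrays together. Leaving out 1 array at a time gave 0 to 10. The count of 0 in IMR-32 at 100 nM became 10 without the second arrays of IMR-32 100 nM, Kelly 100 nM and Kelly 400 nM together, and ran from 0 to 7 without 1 array. Without these second arrays it became 7 in Kelly at 400 nM, 1 in IMR-32 for 400 against 100 nM, 2 in Kelly for 400 against 100 nM, both lower, 4 for the difference of the lines at 400 nM and 6 for the lines in DMSO. Without the first arrays of the same 3 groups it became 9 in Kelly at 100 nM, 9 for 400 against 100 nM in IMR-32, all lower, 5 for 400 against 100 nM in Kelly, all higher, 10 for the difference of the lines and 6 for the lines in DMSO. These fits keep 1 array in 3 groups, whose spread is taken from the other groups. In each of the comparisons just named, the number of all genes called rose as well, so the rise is not particular to the 10 genes. With only the arrays of the comparison, 2 passed for the difference of the lines and 7 for the lines in DMSO, where median centring gave 2 and quantile normalization 1. Without 1 array, the counts ran from 0 to 7 for 400 against 100 nM in IMR-32, 0 to 1 for the difference of the lines, 0 to 2 for the lines in DMSO, and stayed 0 in the 3 Kelly comparisons. The labels do not say that an array number marks a shared batch, and the numbers were not taken to pair the samples: deviations of same-numbered arrays correlated at 0.273, 0.159 and 0.244 between IMR-32 groups and at −0.781, −0.305 and 0.258 between Kelly groups. With the replicate block, 10 passed in IMR-32 at 400 nM, where 5785 of all genes were called lower, and 0 in the 7 other comparisons. Directions turned as follows. With median centring in Kelly at 400 nM, POLK became 0.30, MAD2L2 0.43 and HLTF 0.11, and at 100 nM POLK became 0.0593 and MAD2L2 0.50. With quantile normalization MAD2L2 became 0.28 in IMR-32 at 400 nM and 0.0691 at 100 nM, POLK 0.12, MAD2L2 0.49 and HLTF 0.32 in Kelly at 400 nM, MAD2L2 0.44 in Kelly at 100 nM, and UBE2A −0.0501 for the lines in DMSO. For 400 against 100 nM in IMR-32 it gave POLI 0.0542, MAD2L2 0.21, HLTF 0.23, SHPRH 0.23 and UBE2A 0.0420. Without the first arrays, POLH became 0.0062 and MAD2L2 0.0117 in IMR-32 at 100 nM, and POLK 0.15 and HLTF 0.36 in Kelly at 400 nM. Without the second arrays, MAD2L2 became 0.16 in Kelly at 400 nM and 0.0175 at 100 nM, POLK 0.0947 in Kelly at 100 nM, and POLH 0.28, POLI 0.49, HLTF 0.00929 and SHPRH 0.71 for 400 against 100 nM in IMR-32. Without 1 array, the changes ran in IMR-32 at 100 nM from −2.02 to 0.0062 for POLH and from −1.16 to 0.0117 for MAD2L2. In Kelly at 400 nM they ran from −0.42 to 0.15 for POLK, from −0.17 to 0.16 for MAD2L2 and from −0.996 to 0.36 for HLTF, and in Kelly at 100 nM from −0.99 to 0.0947 for POLK and from −0.0745 to 0.0698 for MAD2L2. For 400 against 100 nM in IMR-32 they ran from −1.75 to 0.28 for POLH, from −1.68 to 0.49 for POLI, from −1.23 to 0.00929 for HLTF and from −1.92 to 0.71 for SHPRH, and for the lines in DMSO from −0.83 to 1.30 for HLTF. For 400 against 100 nM in Kelly, 5 of the 10 genes were lower, against 6 with median centring, 4 with quantile normalization, 4 with equal ERCC means, 9 without the second arrays and 1 without the first, and 0 to 9 without 1 array. The cause of these changes was not tested.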
